A study of Mus musculus with 18 samples.

Results

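The miRNA content of murine neuroblastoma induced by IGF2BP1 together with MYCN (TIM, 8 tumors) was compared with that of neuroblastoma induced by IGF2BP1 alone (TI, 7 tumors). These 15 tumors are the tumor libraries of a small RNA-seq series of 18, chosen by their genotype labels, and 3 normal adrenal glands (AG) served as a reference for levels. The comparison took in all 726 miRNAs that reached 1 CPM in 3 or more of the 18 libraries, of 1966 in the deposited table. TI comprised 6 tumors labelled IGF2BP1 +/+, CRE + and 1 labelled IGF2BP1 +/-, CRE +. TIM comprised 8 tumors labelled IMP1/MYCN, CRE +, where IMP1 is another name of IGF2BP1. AG came from mice labelled CRE -. Each transgene was the human open reading frame behind a loxP-flanked stop cassette and the CAG promoter at the Rosa26 locus. Both IGF2BP1 and MYCN lacked their own 3' UTR. They were switched on by iCRE under the Dbh promoter, which is active in cells of the sympatho-adrenal lineage. A TIM mouse carried 1 Rosa26 allele of each transgene, whereas 6 of the 7 TI mice carried 2 alleles of IGF2BP1, so the addition of MYCN and the lower number of IGF2BP1 alleles cannot be told apart. All mice were on a C57Bl6/N background and tumors were taken at tumor burden, so age was not fixed, and it is not given in the labels. The study reports a shorter median survival of mice with both transgenes than of homozygous IGF2BP1 mice. Age at sampling therefore probably moves with the group and cannot be told apart from genotype. The source labels of 1 TI and 2 TIM tumors name the adrenal gland and that of 1 TIM tumor the spine, but the columns of the table name only the group, so neither these tumors nor the heterozygous one could be set apart. Libraries are numbered below by the order of their columns, as names only. Nothing in the labels says that each came from a separate mouse, so p-values measure the spread between these samples. AG is included in that spread where the 3 groups share 1 model.

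IGF2BP1 is an RNA-binding protein of embryonic and cancer cells that shields bound mRNAs, MYCN among them, from decay and from miRNAs. MYCN is the transcription factor whose gene is amplified in aggressive neuroblastoma. MYC proteins are known to raise transcription of the miR-17/92 cluster and its paralogs and to lower several miRNA families of differentiated cells. The let-7 family can repress the full-length MYCN and IGF2BP1 mRNAs. A miRNA is cut from a hairpin whose arms are named -5p and -3p, and bases 2 to 8 of the mature strand, the seed, carry most of the pairing to target mRNAs. Many hairpins lie in clusters that are transcribed together, some in introns of coding genes. The transgenes themselves are not seen in small RNA libraries, so the genotype labels could not be checked here, and this holds for TI library 5 too, which is described below. Of the neural and neuroendocrine markers listed for the tissue, miR-7a-5p, miR-375-3p, miR-218-5p and miR-128-3p had group medians of 1272 to 72473 CPM in the tumors. Others on the lists were far lower, such as miR-153-3p (means of 51.8 CPM in TI and 28.2 CPM in TIM) and miR-383-5p (72.3 and 99.6 CPM). Summed, the neuron-enriched list was at 50649 to 94716 CPM in TI, 48052 to 88435 CPM in TIM and 5091 to 12591 CPM in AG. The sums of the neuroendocrine list in AG, at 49424 to 116747 CPM, lay within the range of each tumor group. Among single members, miR-375-3p and miR-383-5p had lower means in both tumor groups than in AG.

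The tumor libraries held between 11641696 and 23435621 reads on miRNAs, at which 3 reads correspond to 0.101 to 0.272 CPM, and such limits cover counting error only. A single miRNA, miR-148a-3p, took 30.1% to 61.9% of the reads in 6 TI libraries, 2.29% in TI library 5 and 6.53% to 44.2% in TIM. The TMM factors by which the authors scaled the totals were 0.700 to 0.934 for TI libraries and 0.802 to 1.85 for TIM libraries, so the scaling moves with the group. Without these factors the median difference over all 726 miRNAs was 0.49 on the log2 scale, against 0.06 with them. TI library 5 stood apart from the other 6. It lay within TIM in the Sfmbt2 cluster and in miR-196a-5p and was the highest of TI in the X chromosome cluster, and whether its label is right could not be checked. Many of the ranges below turn on this library. It was picked out by its own values in such miRNAs, so fits without it are a description and no support for a difference in them. Across the 726 miRNAs its log2 levels correlated with those of the other TI libraries with a median r of 0.919 and with those of TIM with 0.914, where the other TI libraries had 0.937 to 0.957 and 0.908 to 0.938.

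Of the 726 miRNAs, 38 (5.23%) differed between TIM and TI at an adjusted p-value under 0.05 in limma on log2(CPM + 1), 25 of them higher in TIM (3.44% of all tested) and 13 lower (1.79%). In bulk tumor, fewer cells of a type and less of a miRNA per cell cannot be told apart. Of the 25 higher ones, 23 are made from hairpins in an intron of Sfmbt2 on chromosome 2, and the other two, miR-760-3p and miR-12194-3p, from chromosome 3. Of the 13 lower ones, 6 come from a cluster on the X chromosome, 2 are miR-196a products, 2 are miR-344d products, and the rest are miR-203-3p, miR-16-5p and miR-12184-3p. Without TI library 5, 51 miRNAs (7.02%) passed in limma, 33 of the 38 among them. The count depended on the method: edgeR on the recovered reads called 3 (0.413%) with all libraries and 71 (9.78%) without TI library 5, and DESeq2 called 123 (16.9%), 7.71% of the tested miRNAs as higher and 9.23% as lower. Library totals without the TMM factor gave 19% as higher in limma. Below, a miRNA passed where it did so in limma with all libraries, unless another tool or setting is named. The 3 of edgeR were miR-196a-5p, miR-203-3p and miR-669h-5p. Only 2 of 726 miRNAs (0.275%) had no overlap between the 7 TI and the 8 TIM libraries, miR-760-3p and miR-28a-3p, and 37 (5.1%) had none when TI library 5 was set aside. Of the 2, miR-28a-3p was lower in TIM, at 54.4 to 93.8 CPM in TI and 30.7 to 53.0 CPM in TIM, and was not among the 38.

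**Figure D1:**
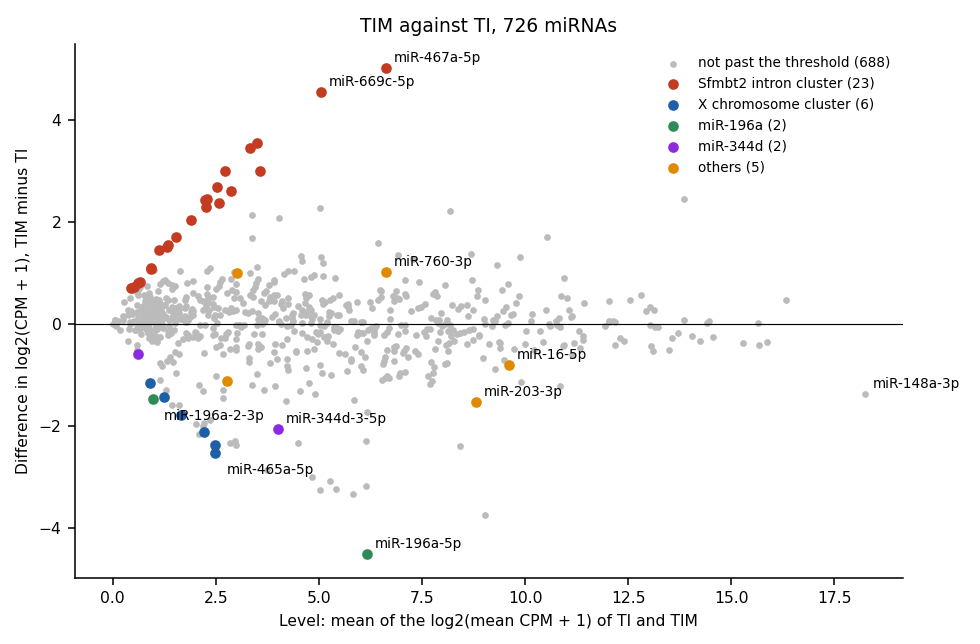
Difference in log2(CPM + 1) between TIM and TI (vertical, TIM minus TI) against level (horizontal, mean of the log2(mean CPM + 1) of both groups) for 726 miRNAs, with the 38 past an adjusted p of 0.05 in colour. The 23 miRNAs of the Sfmbt2 intron cluster rise to 5.02 at the top, miR-196a-5p lies lowest at -4.50, and miR-148a-3p, the most abundant, lies at -1.37 in grey.

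The mature sequences of the miRNAs outside the Sfmbt2 intron that differed are shown first, since they identify the products and which of them share a seed. They are the RefSeq sequences on GRCm38.p6, the build of the deposited table, 5' to 3', with the seed in capitals. Sequences were found for 15 of the 38, and the 23 of the Sfmbt2 intron are given by name.
miR-196a-5p: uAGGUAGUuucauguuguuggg
miR-196a-2-3p: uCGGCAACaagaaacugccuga
miR-203-3p: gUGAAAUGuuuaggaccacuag
miR-16-5p: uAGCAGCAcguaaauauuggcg
miR-344d-3-5p: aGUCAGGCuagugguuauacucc
miR-344d-1-5p: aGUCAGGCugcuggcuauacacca
miR-465a-5p: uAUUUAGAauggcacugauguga
miR-871-5p: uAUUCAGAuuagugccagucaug
miR-743b-5p: uGUUCAGAcugguguccauca
miR-471-5p: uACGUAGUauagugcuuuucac
miR-741-5p: uACGUAGAuugguaccuaucaug
miR-878-3p: gCAUGACAccacacuggguaga
miR-12184-3p: aCAGACGGgcucucaugcuga
miR-760-3p: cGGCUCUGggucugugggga
miR-12194-3p: uCUGUGGGucuguuuguccguc
The seed of miR-196a-5p is shared with 1 other tested miRNA, miR-196b-5p, that of miR-16-5p with 5 others of the miR-15/16 family, that of both miR-344d products with miR-344-5p, that of miR-465a-5p with miR-465b-5p and miR-465c-5p, and that of miR-871-5p with miR-743a-5p. The remaining 9 had a seed that no other tested miRNA with a listed sequence held.

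The miRNAs of the Sfmbt2 intron were nearly silent in 6 of 7 TI tumors and present in every TIM tumor. Sfmbt2 encodes a Polycomb group protein, and in mouse and related rodents an intron of the gene holds a large, repetitive array of miRNA hairpins of the miR-297, miR-466, miR-467 and miR-669 families, best known from embryonic stem cells and placenta. The gene spans chr2:10370440-10595253 (mm10) and holds 71 annotated miRNA genes. The table lists 69 mature miRNAs of this span, of which 31 reached 1 CPM in 3 libraries and were tested. Summed over the 69, the level was 3.73, 4.63, 5.48, 6.34, 7.66 and 19.8 CPM in 6 TI libraries and 475 CPM in TI library 5. In TIM it ran from 151 to 1506 CPM with a median of 435, and in AG it was 252, 278 and 296 CPM. Thus TI library 5 lay above AG and within the range of TIM, and the other 6 TI libraries did not overlap with either.

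Of the 31 tested, 23 were higher in TIM (against 3.44% of all miRNAs) and none was lower (against 1.79%). The differences of the 23 lay between 0.71 and 5.02 on the log2(CPM + 1) scale. With all libraries, edgeR called 1 of the 31 higher, and DESeq2 called 20 (against 7.71% of all miRNAs). The median difference of the 31 was 1.51, against 0.06 for all 726 miRNAs. The 8 that did not pass had values from 0.56 to 1.09 and adjusted p-values of 0.051 to 0.18 in limma. TI library 5 was picked out by its high values for these same miRNAs, so fits without it are a description and no support. In such fits 31 of 31 were higher in TIM in limma (7.02% of all miRNAs passed) and in edgeR (9.78%). Of the 31, 30 had no overlap between the 6 TI and the 8 TIM libraries, against 5.1% of all miRNAs. Since 38 of the 69 did not reach the filter, and a miRNA absent from TI could reach it only through the other groups, the share of called miRNAs among those tested is a description. The paralogs of the array are close to identical in sequence, and the treatment of reads with several matches is not given in the sources used here, so the division of reads among its members is uncertain.

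The most abundant product was miR-467a-5p, with 0.804, 2.90 and 213 CPM as lowest, median and highest value of TI, 61.9, 222 and 822 CPM in TIM, and 128.4, 157 and 162 CPM in AG. Its difference was 5.02 (standard error 0.82, adjusted p = 0.0014 in limma), and without TI library 5 the highest TI value was 11 CPM and the difference 5.86 (adjusted p = 6.72e-07 in limma). The next was miR-669c-5p, with 0.422, 1.06 and 68.5 CPM in TI, 27.7, 83.8 and 168 CPM in TIM, and 27.8, 32.9 and 34.5 CPM in AG, a difference of 4.56 (standard error 0.67, adjusted p = 0.0013 in limma), and 5.29 without TI library 5 (adjusted p = 3.07e-08 in limma). In both the single high TI value was that of library 5, and the other 6 lay under the lowest TIM library.

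Of the related 5p products, miR-467b-5p was at 0.0731, 0.272 and 21.2 CPM in TI, 6.49, 22.4 and 81.0 CPM in TIM, and 12.9, 16.1 and 17.6 CPM in AG. For miR-467e-5p the values were 0.0880, 0.244 and 19.3 CPM in TI, 6.19, 19.9 and 66.2 CPM in TIM, and 9.25, 10.8 and 11.3 CPM in AG. For miR-467c-5p they were 0, 0.302 and 9.19 CPM in TI, 4.0, 11.3 and 42.1 CPM in TIM, and 6.93, 7.27 and 7.50 CPM in AG. These 3 had differences of 3.56, 3.46 and 3.0 with adjusted p-values of 0.0014 in limma, and in all of them TI library 5 lay within the range of TIM and the other 6 below its lowest library. Without it the differences were 4.14 for miR-467b-5p, 4.03 for miR-467e-5p and 3.43 for miR-467c-5p.

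From the miR-669a and miR-466c hairpins, miR-669a-5p was at 0.181, 0.635 and 29.8 CPM in TI, 6.26, 15.6 and 62.0 CPM in TIM, and 13.6, 14.1 and 16.5 CPM in AG. In the same way miR-466c-5p was at 0.0731, 0.304 and 19.1 CPM in TI, 3.76, 11.1 and 30.7 CPM in TIM, and 7.44, 8.30 and 9.16 CPM in AG. The opposite arm of the most abundant hairpin, miR-467a-3p, was at 0, 0.181 and 9.51 CPM in TI, 2.89, 9.49 and 34.0 CPM in TIM, and 1.71, 2.27 and 2.84 CPM in AG. Their differences were 3.0, 2.61 and 2.68, with adjusted p-values of 0.0054, 0.0077 and 0.0045 in limma. The AG libraries lay within the range of TIM for both 5p products and below its lowest library for miR-467a-3p, and TI library 5 lay within TIM for all 3. Without it the differences were 3.61 for miR-669a-5p, 3.18 for miR-466c-5p and 3.13 for miR-467a-3p.

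The other 15 Sfmbt2 miRNAs past the threshold stayed under a mean of 10 CPM in TIM, with TIM medians of 0.715 to 7.34 CPM and differences of 0.71 to 2.45. Examples are miR-669l-5p (2.45), miR-467d-5p (2.44), miR-669o-5p (2.3), miR-466b-3p (2.05) and miR-669h-5p (0.71). The last had no read in 6 TI libraries, where 3 reads would be up to 0.272 CPM, 0.267 CPM in TI library 5, and 0.139 to 1.58 CPM in TIM. Both arms of 5 hairpin names (miR-467a, miR-467d, miR-669a, miR-466b and miR-466c) passed in the same direction.

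**Figure D2:**
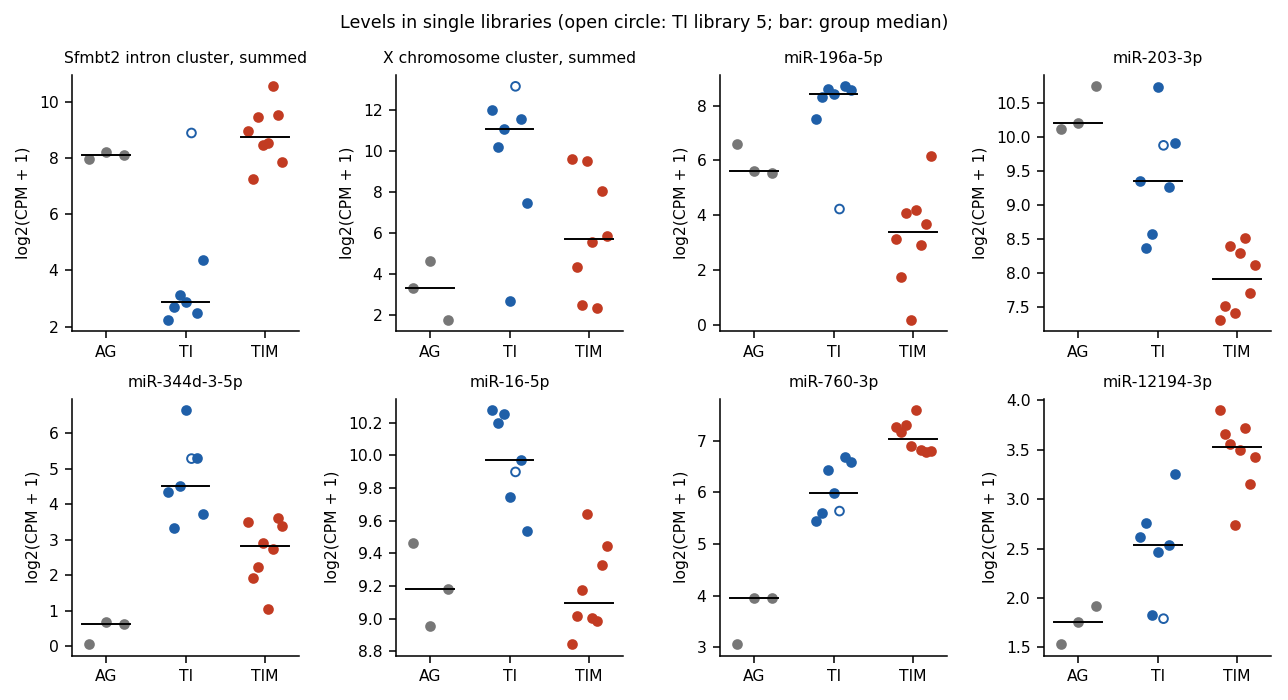
Levels in log2(CPM + 1) of the summed Sfmbt2 and X chromosome clusters and of 6 miRNAs in single libraries of AG (grey), TI (blue) and TIM (red), with the group median as a bar and TI library 5 as an open circle. TI library 5 lies among TIM for the Sfmbt2 cluster (475 CPM) and miR-196a-5p (17.7 CPM), at the top of TI for the X cluster (9248 CPM) and among TI for miR-203-3p and miR-16-5p.

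Among the miRNAs of the Hox clusters, miR-196a fell and the others did not pass. Hox genes set position along the body axis, and miR-196 is embedded in their clusters and represses several of them. The product miR-196a-5p is made from Mir196a-1 at chr11:96265187-96265208, 6122 bp from Hoxb9, and from Mir196a-2 at chr15:102973365-102973386, 1467 bp from Hoxc10, both on the plus strand. Its levels were 17.7, 184, 319, 341, 376, 394 and 417 CPM in TI, and 0.134, 2.36, 6.60, 7.80, 11.8, 16.2, 17.5 and 70.6 CPM in TIM. AG had 45.2, 48.3 and 95.8 CPM. Here too TI library 5 was the exception, with 17.7 CPM, and the other 6 TI libraries lay above all TIM and AG libraries. The difference was -4.50 (standard error 0.76, adjusted p = 0.0014 in limma), or -5.09 without TI library 5 (adjusted p = 2.08e-05 in limma), and the call held in all fits that left out a library and in 11 of 12 other settings. The exception was the exact rank-sum permutation test, which called none of the 726.

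The 3p arms separate the hairpins. The arm of the Hoxc copy, miR-196a-2-3p, was at 0.107 to 3.96 CPM in TI and at 0 to 0.766 CPM in TIM, a difference of -1.47 (adjusted p = 0.0021 in limma), with TI library 5 again the lowest of TI and a difference of -1.71 without it. Its highest level in AG was 0.416 CPM, so miR-196a-2-3p reached the filter of 1 CPM only through TI, where it is high. Its call is therefore a description. The arm of the Hoxb copy, miR-196a-1-3p, had means of 1.10 and 1.21 CPM and a difference of 0.16 (standard error 0.40, adjusted p = 0.87 in limma). Whether the arms differ from each other was not tested. The seed relative miR-196b-5p, from the Hoxa cluster on chromosome 6, ranged from 0.588 to 24.2 CPM in TI and 0.224 to 567.9 CPM in TIM, with a difference of 0.52 (adjusted p = 0.84 in limma).

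Of 10 Hox miRNAs tested, none passed upward (against 3.44% of all miRNAs) and 2 downward (against 1.79%) in limma, with a median of 0.21. Since miR-196a-2-3p was tested only through its levels in TI, the downward count is a description. Those at the edges were miR-10b-5p, at 246 to 67849 CPM in TI and 8213 to 34310 CPM in TIM (difference 2.45, adjusted p = 0.085 in limma), and miR-615-3p, with medians of 474 CPM in TI and 136.9 CPM in TIM (difference -2.39, adjusted p = 0.064 in limma). For miR-10b-5p the 7 TI libraries spread wider than the 8 of TIM. Both miR-10b-5p and miR-10b-3p passed upward in limma without TI library 4 and at library totals without the TMM factor. DESeq2 called miR-10b-3p, and totals without miR-148a-3p did as well. Without TIM library 8, miR-615-3p passed downward.

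A cluster of hairpins on the X chromosome had a median of 2195 CPM over TI tumors and of 52.5 CPM over TIM tumors, with a wide overlap. It was chosen after its values were seen and is described without a test of the group. It spans chrX:66776757-66839125 (mm10) from Mir743 to Mir465 with 19 annotated miRNA genes, and its miRNAs are known mainly from the testis. The table lists 34 mature miRNAs of this span, and 24 were tested. Summed, they were at 5.37, 176, 1198, 2195, 3076, 4148 and 9248 CPM in TI, at 4.09, 4.64, 19.7, 46.9, 58.1, 262, 749 and 800 CPM in TIM, and at 2.41, 8.92 and 24.1 CPM in AG. TI library 4 lay at the level of AG, TI library 7 within TIM, and TI library 5 highest, so the groups overlapped.

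All 24 had a lower mean log2 level in TIM, with differences from -3.74 to -1.16 and a median of -2.32, and 6 of them passed, against 1.79% of all tested in this direction. Some members reached the filter of 1 CPM only through TI, where they are high. Examples are miR-741-5p (highest 0.510 CPM in TIM and 0.0466 CPM in AG) and miR-878-3p (0.895 and 0.0932 CPM). These counts are therefore a description. The most abundant member, miR-881-3p, did not pass, with 3.74, 1490 and 5593 CPM as lowest, median and highest value of TI and 2.98, 32.9 and 477 CPM in TIM (difference -3.74, standard error 1.39, adjusted p = 0.10 in limma). The calls lay near the threshold and turned on the tool, the setting and single libraries. With all libraries, DESeq2 called 24 of 24 lower (against 9.23% of all miRNAs) and edgeR called 0 (against 2 of 726). In limma 0 passed with only the 2 tumor groups in the model, and 0 of 15 tested with a minimum of 10 CPM. Median ratio scaling gave 14 (against 27 of 726 lower), and totals without the TMM factor also 14 (against 17 of 726). With TI library 4 left out, 24 of 24 passed (8.68% of all miRNAs passed in that fit), with TI library 7 or TIM library 4 left out 19 (9.92% and 9.09%), and with TIM library 1 left out 15 (7.02%). Between 0 and 2 passed when any other library was left out, TI library 5 included with 2.

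Of 18 members with a mean of at least 10 CPM in TI, 3 passed. Of these, miR-465a-5p was at 0, 12.1 and 43.1 CPM in TI as lowest, median and highest value, at 0, 0.216 and 3.76 CPM in TIM, and at 0, 0.0462 and 0.0925 CPM in AG (difference -2.52, adjusted p = 0.038 in limma). For miR-871-5p the TI values were 0.0604, 8.19 and 51.2 CPM, the TIM values 0, 0.194 and 3.25 CPM, and the AG values 0, 0.0466 and 0.0925 CPM (difference -2.38, adjusted p = 0.038 in limma). The third, miR-743b-5p, was at 0, 9.42 and 33.1 CPM in TI, at 0, 0.251 and 3.10 CPM in TIM, and at 0, 0.0466 and 0.0925 CPM in AG (difference -2.13, adjusted p = 0.046 in limma). In each, TI library 4 held next to no reads and TIM libraries 1 and 4 were the highest of TIM. The other 3 past the threshold, miR-471-5p (-1.79), miR-878-3p (-1.44) and miR-741-5p (-1.16), had medians of 1.58 to 4.93 CPM in TI and of 0.0223 to 0.149 CPM in TIM. The seed relatives miR-465b-5p (-3.33) and miR-465c-5p (-3.24) were more abundant than miR-465a-5p, with medians of 118 and 96.5 CPM in TI, and did not pass (adjusted p = 0.089 and 0.084 in limma).

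**Figure D3:**
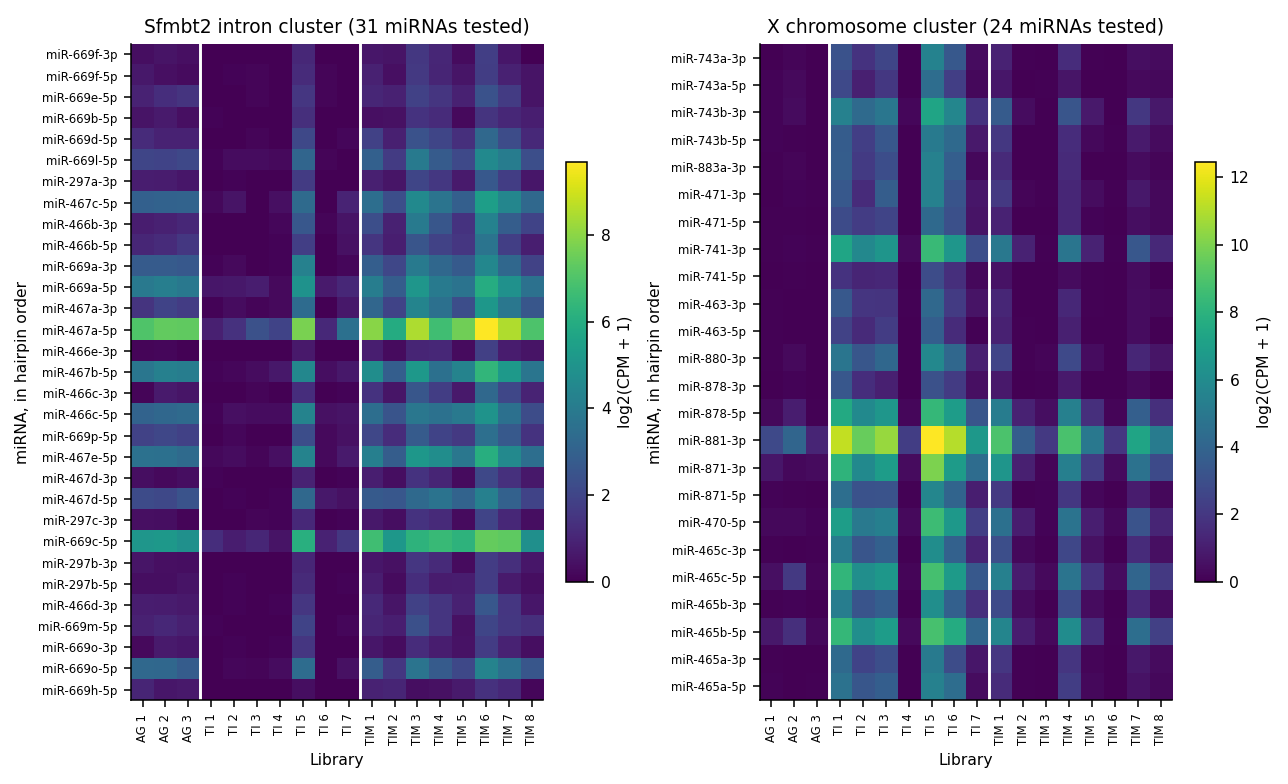
Levels in log2(CPM + 1), as colour, of the 31 tested miRNAs of the Sfmbt2 intron cluster and the 24 of the X chromosome cluster (rows, in the order of their hairpins) in 18 libraries (columns, with white lines between AG, TI and TIM). In the left map TI library 5 looks like AG and TIM and the other 6 TI columns are dark, and in the right map TI libraries 4 and 7 are dark and TI library 5 is the brightest.

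The 5 remaining abundant miRNAs that differed came from separate loci, and TI library 5 lay within or at the edge of the other TI libraries, away from TIM. miR-203-3p, known as a brake on stemness in skin epithelium, fell. It lies at chr12:112130927-112130948, plus strand, 3354 bp from Aspg. Its levels were 330, 652 and 1707 CPM in TI as lowest, median and highest value, 159, 243 and 366 CPM in TIM, and 1107, 1182 and 1711 CPM in AG. The groups overlapped in the lowest TI library, at 330 CPM, and 2 TIM libraries above it. The difference was -1.53 (standard error 0.32, adjusted p = 0.0077 in limma), or 2.88-fold lower on this scale. The call was lost without the TMM factor, at -0.97 (adjusted p = 0.068 in limma). Its other arm, miR-203-5p, had means of 0.736 and 0.283 CPM and did not pass (difference -0.40, adjusted p = 0.092 in limma).

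miR-16-5p, which represses cyclins and Bcl2 and is lost in some leukemias, fell as well. It is made from Mir16-1 in the Dleu2 transcript on chromosome 14 (61631936-61631957, minus strand) and from Mir16-2 in Smc4 on chromosome 3 (69009918-69009939, plus strand). Its levels were 743, 1005 and 1238 CPM in TI, 459, 547 and 797 CPM in TIM, and 495, 581 and 704 CPM in AG. The difference was -0.80 (standard error 0.18, 95% interval -1.18 to -0.42, adjusted p = 0.013 in limma), and only the lowest TI and the highest TIM libraries overlapped. With library totals without the TMM factor it was -0.24 (adjusted p = 0.40 in limma). The call was also lost with totals without miR-148a-3p, in edgeR and in the exact rank-sum permutation test, so it depends on scaling and test. The 5 tested relatives with the same seed had differences between -1.06 (miR-15b-5p) and -0.23 (miR-497a-5p), and none passed. The 3p arms of the hairpins, miR-16-1-3p and miR-16-2-3p, had differences of -0.03 and -0.22 (adjusted p = 0.97 and 0.68 in limma).

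Of the miR-344 family, which lies on chromosome 7, 2 of 12 tested members fell and none rose in limma, against 1.79% of all miRNAs that fell. DESeq2 called 4 lower, against 9.23% of all miRNAs, and 1 to 3 fell when a library was left out. miR-344d-3-5p, at chr7:61726296-61726318 on the minus strand, had 9.07, 21.8 and 99.3 CPM in TI, 1.07, 6.10 and 11.3 CPM in TIM, and 0.0462, 0.555 and 0.606 CPM in AG. Its difference was -2.06 (standard error 0.47, adjusted p = 0.013 in limma). miR-344d-1-5p was at 0.160 to 1.73 CPM in TI, 0.0336 to 0.418 CPM in TIM and 0 CPM in AG (difference -0.59, adjusted p = 0.033 in limma). It reached the filter of 1 CPM only through TI, where it is high, so its call and the count of 2 of 12 are a description. The shared other arm, miR-344d-3p, is far more abundant, with 150, 231 and 915 CPM in TI and 26.8, 141 and 177 CPM in TIM, and did not pass (difference -1.17, adjusted p = 0.099 in limma). The most abundant of the family, miR-344-3p, had a mean of 2608 CPM (SD 485, n = 7) in TI and of 2063 CPM (SD 624, n = 8) in TIM, with an adjusted p of 0.35 in limma. The median of the 12 was -0.31, and 0.15 without the TMM factor.

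Upward, miR-760-3p was the miRNA whose groups did not overlap. It lies at chr3:122293615-122293634, minus strand, within the transcript Gm40190. Its levels were 42.7, 47.4, 48.8, 62.8, 85.1, 96 and 103 CPM in TI. In TIM they were 109, 111, 112, 119, 143, 152.6, 157 and 192 CPM. AG had 7.35, 14.4 and 14.5 CPM. The difference was 1.02 (standard error 0.25, adjusted p = 0.019 in limma), or 2.03-fold, and every TIM library lay above every TI library, though by a narrow margin. When TI library 1 or 2 was left out, the adjusted p was 0.053 or 0.051 in limma. miR-12194-3p, from within Nbea at chr3:55887284-55887305, minus strand, had 2.46, 4.81 and 8.53 CPM in TI, 5.68, 10.5 and 13.9 CPM in TIM, and 1.90, 2.38 and 2.78 CPM in AG (difference 0.99, standard error 0.25, adjusted p = 0.025 in limma). Its groups overlapped, and its call was lost without TI library 3 (0.057) or TIM library 6 (0.051). The last of the 38, miR-12184-3p from within Gpld1 on chromosome 13, had a mean of 8.62 CPM (SD 2.96, n = 7) in TI against 3.81 CPM (SD 2.62, n = 8) in TIM, and an adjusted p of 0.04996 in limma. It was called in 3 of 15 fits that left out a library.

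At the threshold, the 3 nearest inside were miR-878-3p, miR-743b-5p and miR-12184-3p, and the 3 nearest outside miR-100-5p, miR-883a-3p and miR-669m-5p, each with an adjusted p of 0.0509 in limma. miR-100-5p, from the Mir100hg transcript on chromosome 9, was at 388, 542 and 1128 CPM in TI, at 504, 1857 and 8962 CPM in TIM, and at 8113, 8691 and 9457 CPM in AG, a difference of 1.70. Its relatives miR-99a-5p and miR-99b-5p, which share its seed, had differences of -0.01 and 0.04.

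Over all hairpins with at least 1 arm past the threshold, 21 pairs of mature products had both arms tested. In 20 of the 21 the arms had the same sign, and in 6 both passed. The exception was miR-196a-5p with miR-196a-1-3p.

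Across the lists of miRNAs tied to MYC proteins, 1 miRNA passed in limma, against 5.23% of all miRNAs tested. Of 11 tested members of the miR-17/92 cluster, the polycistron that promotes growth and is a textbook MYC target, none passed. The median difference was 0.27, against 0.06 for all miRNAs, and turned to -0.02 without TI library 5. Its most abundant member, miR-92a-3p, had a mean of 1809 CPM (SD 941, n = 7) in TI and of 1899 CPM (SD 1046, n = 8) in TIM, and for miR-17-5p the 95% interval of the difference ran from -1.14 to 1.73. Summed, the cluster spanned 992 to 5063 CPM in TI and 622 to 5674 CPM in TIM, so the spread within each group was wider than the distance between them. In the paralogous miR-106b/25 cluster and its relative on the X chromosome, none of 9 passed in limma, and the extremes were miR-20b-5p (0.85, adjusted p = 0.22 in limma) and miR-106b-3p (-0.31, adjusted p = 0.71 in limma). DESeq2 called miR-20b-5p higher, against 7.71% of all miRNAs.

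Of 11 tested let-7 miRNAs, which mark differentiated cells and are held back by LIN28, none passed. The differences ran from -0.33 (let-7i-5p) to 0.42 (let-7a-5p), the median was -0.09, and it turned to 0.45 without the TMM factor, where let-7a-5p and let-7c-5p passed upward, as did 19% of all miRNAs, whose median was 0.49. Summed, let-7 was at 42713 to 74172 CPM in TI and 45413 to 68238 CPM in TIM. Other families with sites in the MYCN 3' UTR, which the MYCN transgene lacks, include miR-34, miR-29, miR-101 and miR-302. None of their 9 tested members passed, between miR-29c-3p (-0.91, adjusted p = 0.43 in limma) and miR-101b-3p (0.28, adjusted p = 0.37 in limma). Of 18 miRNAs listed in the literature as repressed by MYC, miR-16-5p passed in limma. DESeq2 called miR-16-5p and miR-146a-5p lower, against 9.23% of all miRNAs. A negative difference was seen in 13 of the 18, with a median of -0.32 that turned to 0.24 without the TMM factor. The lowest of them was miR-146a-5p, with a mean of 333 CPM (SD 343, n = 7) in TI against 135 CPM (SD 98.2, n = 8) in TIM (difference -1.12, adjusted p = 0.12 in limma).

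The imprinted Dlk1-Dio3 locus, a large miRNA cluster on chromosome 12, gave 99 tested miRNAs, and none passed in limma. DESeq2 called 1 higher and 8 lower, against 7.71% and 9.23% of all miRNAs. In edgeR without TI library 5, 7 of the 99 were called lower, against 28 of all 726. Their median was -0.23, and 0.28 without the TMM factor, where 7 passed upward, against 19% of all miRNAs. The extremes were miR-376a-3p (-1.49, adjusted p = 0.087 in limma), at 20.7 to 268 CPM in TI and 11.9 to 54.8 CPM in TIM, and miR-410-5p (1.03, adjusted p = 0.094 in limma). Without TI library 5 miR-376a-3p passed, at -1.77 (adjusted p = 0.040 in limma). The cluster of miR-183, miR-96 and miR-182, known from sensory neurons, varied more within TIM than between the groups. Its sums were 34.5 to 823 CPM in TI and 15.4 to 15235 CPM in TIM. None of its 3 members passed in limma, whereas DESeq2 called all 3 higher, against 7.71% of all miRNAs.

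**Figure D4:**
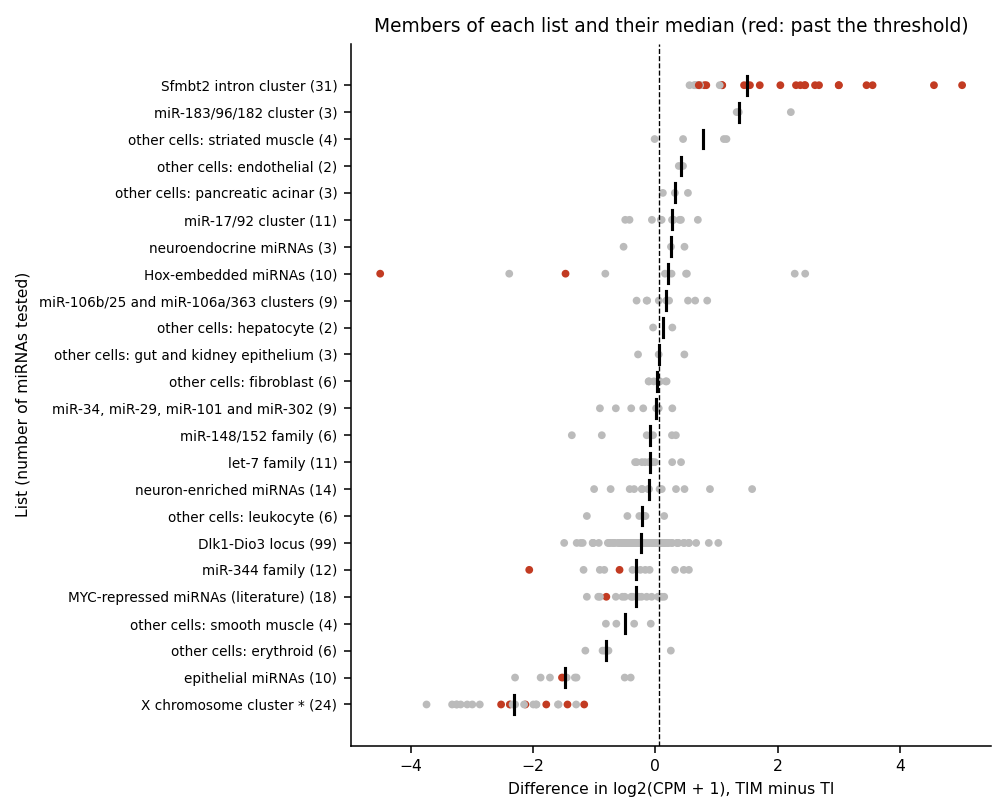
Differences in log2(CPM + 1) between TIM and TI (horizontal) of the tested members of each list (rows, with the number tested), members past the threshold in red, the median of each list as a black bar and the median of all 726 miRNAs (0.06) as a dashed line. The Sfmbt2 intron cluster (median 1.51) and the X chromosome cluster (-2.32, marked * as chosen after its values were seen) lie at the ends, and the medians of let-7, Dlk1-Dio3, miR-344, MYC-repressed, miR-148 with miR-152, neuron-enriched, smooth muscle and leukocyte miRNAs turn positive without the TMM factor.

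The markers of cell types gave the following. Of 14 neuron-enriched miRNAs, none passed in limma, and DESeq2 called miR-128-3p higher, against 7.71% of all miRNAs. The list summed to 50649 to 94716 CPM in TI and 48052 to 88435 CPM in TIM. The extremes were miR-383-5p (1.58, adjusted p = 0.24 in limma) and miR-153-3p (-1.0, adjusted p = 0.13 in limma). In limma miR-128-3p passed without TI library 7 or TIM library 4. Of the neuroendocrine miRNAs miR-7 and miR-375, which mark chromaffin and islet cells, none of 3 passed, and TI library 5 had the highest sum, at 271810 CPM. Of 10 epithelial miRNAs (the miR-200 family, miR-203 and miR-205), miR-203-3p passed in limma, against 1.79% of all miRNAs that fell. DESeq2 called 6 lower, against 9.23% of all miRNAs. All 10 had a negative difference, with a median of -1.48 against 0.06 for all miRNAs. The list summed to 355 to 1989 CPM in TI, 181 to 542 CPM in TIM and 1241 to 1768 CPM in AG, and the part of these cells in the difference of miR-203-3p was not tested. The lowest of the list, miR-200a-3p, had a median of 70.9 CPM in TI and 4.78 CPM in TIM (difference -2.3, adjusted p = 0.22 in limma).

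Of the miRNAs of other cell types, none passed in limma. Of those tested, with numbers given below, DESeq2 called miR-143-5p, miR-146a-5p and miR-206-3p lower, as it did 9.23% of all miRNAs. In limma miR-126a-3p, miR-126a-5p and miR-192-5p passed upward without the TMM factor, as did 19% of all miRNAs. Smooth muscle miRNAs (4 tested) summed to 15822 to 171457 CPM in TI and 16046 to 101185 CPM in TIM, fibroblast miRNAs (6) to 487 to 2041 and 303 to 1675 CPM, and the endothelial miR-126a arms (2) to 1704 to 6736 and 2428 to 8943 CPM. Erythroid miRNAs (6) summed to 464 to 5154 CPM in TI and 228 to 3177 CPM in TIM, and leukocyte miRNAs (6) to 273 to 1372 CPM in TI and 144.6 to 518 CPM in TIM. Hepatocyte miR-122 (2) stayed between 4.25 and 82.5 CPM in all tumors, and gut and kidney epithelial miRNAs (3) between 269 and 1170 CPM. Single libraries held more of a cell type than the rest. TIM library 1 had 22999 CPM of striated muscle miRNAs (4), chiefly miR-1a-3p, where the other tumors had 49.7 to 352 CPM. TI library 5 and TIM library 4 had 74.6 and 156 CPM of the acinar miR-216 and miR-217 (3), where the other tumors had up to 9.59 CPM. TI library 5 had the highest smooth muscle, erythroid and, among TI, endothelial sums, and the part of these cells in its Sfmbt2 and miR-196a levels was not tested. For the Sfmbt2 cluster, the difference was larger without this library, as its high level there entails.

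The most abundant miRNAs over the tumors were miR-148a-3p, miR-7a-5p, miR-143-3p, miR-218-5p and miR-21a-5p, and none passed in limma. DESeq2 called miR-148a-3p lower. miR-148a-3p was at 25964, 574112 and 831523 CPM in TI as lowest, median and highest value and at 49778, 158780 and 551329 CPM in TIM (difference -1.37, 95% interval -2.73 to -0.00, adjusted p = 0.22 in limma). The lowest TI value was that of library 5, and without it the difference was -2.0 (adjusted p = 0.0080 in limma). Of the 5 other tested members of its family with miR-148b and miR-152, none passed. For miR-21a-5p the values were 9898, 62097 and 106641 CPM in TI and 25892, 47673 and 69831 CPM in TIM, with a difference of 0.03 (95% interval -0.86 to 0.91). For miR-218-5p they were 39876, 62170 and 77478 CPM in TI and 27453, 48025 and 61319 CPM in TIM (-0.42, 95% interval -0.97 to 0.13), and the intervals of miR-7a-5p (-0.54 to 1.49) and miR-143-3p (-1.36 to 0.67) also held 0.

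Tumors of the same group differed from each other widely. The median SD of a miRNA between libraries was 0.62 on the log2 scale in TI and 0.62 in TIM, against 0.27 in AG, and 0.55 in TI without library 5. Across the 726 miRNAs, the median correlation was 0.939 between pairs of TI libraries (21 pairs), 0.946 within TIM (28) and 0.924 between TI and TIM (56), and the ranges overlapped. These pairs share libraries and are given as a description.

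**Figure D5:**
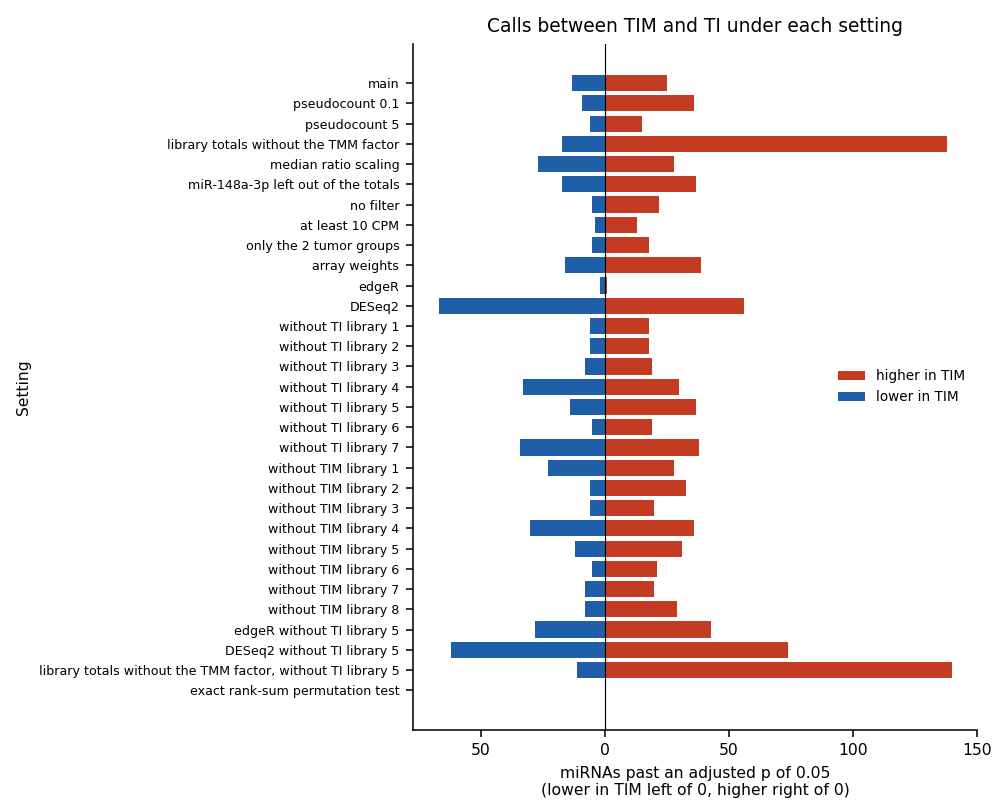
Number of miRNAs past an adjusted p of 0.05 between TIM and TI (horizontal, higher in TIM in red to the right of 0, lower in blue to the left) under each setting (rows). Against 25 higher and 13 lower in the main comparison, totals without the TMM factor gave the longest bar to the right and 17 lower, edgeR 1 higher and 2 lower, and edgeR without TI library 5 gave 43 higher and 28 lower.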

How the data were processed

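Small RNA of 3 adrenal glands and 15 tumors was sequenced. The labels give TRIzol extraction, whereas the study's methods describe a Qiagen AllPrep kit for tumors and organs. Per the labels, the authors used cutadapt 2.8, Bowtie2 2.3.5.1, featureCounts 2.0.0 and edgeR 3.40 with mm10. The deposited values are a signal per mature miRNA, CPM that the authors scaled with the TMM factors of edgeR. The table also holds the authors' log2 fold changes, p-values and FDR, which were not used. How reads with several matches were counted, and whether strand was used, is not given in the sources used here. The labels give no batch.

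All values (100%) were whole multiples of 1 read within 0.01 reads, from which reads were recovered for edgeR 4.0.16 and DESeq2 1.42.0. The main test was limma 3.58.1 (trend) in R 4.3.3 on log2(CPM + 1), a scale that understates the change of low miRNAs, with the 3 groups in 1 model, the 726 miRNAs that reached 1 CPM in 3 or more libraries, and Benjamini-Hochberg adjusted p-values against 0.05. The scripts were tested on simulated data. Python 3.11.15 served for the exact rank-sum permutation test (two-sided, 6435 arrangements) and the summaries. No 2 libraries were identical. Alternatives were other pseudocounts (0.1 and 5), scalings, filters, tests and left-out libraries. Hairpin positions come from RefSeq on GRCm38.p6, which located 1952 of 1966 miRNAs, and sequences were listed for 1675.

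The comparison, the lists and the rule for naming were chosen with earlier results of these data known. Every miRNA past the threshold is accounted for, those with a mean of at least 10 CPM in the higher group with their values, beside the 3 nearest the threshold on each side, the other arms, the 5 most abundant and 2 to 4 members of each list. miR-28a-3p, miR-881-3p, miR-615-3p and the seed relatives were added after their values were seen.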

Additional observations from a re-analysis of the deposited data

Results flagged for a closer look

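In groups of 7 or 8 libraries, the gap between the highest or lowest library and its nearest neighbour, as a share of the group's range in log2(CPM + 1), was compared with Dixon's 95% critical value for 17 miRNAs past the threshold with at least 10 CPM and for each list's summed level. Of 84 groups of values, 16 were past it, and chance flags about 1 in 20, or 4.2. Of the 16, 13 fell on TI library 5. It was the highest of TI for miR-669c-5p (0.813), miR-467a-5p (0.603), miR-467c-5p (0.708), miR-467e-5p (0.863), miR-467b-5p (0.878), miR-467a-3p (0.812), miR-669a-5p (0.822), miR-466c-5p (0.905) and the summed Sfmbt2 cluster by name (0.689) and by position (0.679), which are not independent of each other. It was the lowest of TI for miR-196a-5p (0.737) and for the summed miR-148 and miR-152 family (0.751), and the highest for acinar miRNAs (0.723), at 74.6 CPM. TI library 2 was the highest for leukocyte miRNAs (0.579), at 1372 CPM. TIM library 1 was the highest for striated muscle miRNAs (0.842), at 22999 CPM, and TIM library 4 for acinar miRNAs (0.573), at 156 CPM.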

How the results depend on the processing

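Against 5.23% of the tested miRNAs past the threshold, the share was 2.89% with a pseudocount of 5, 21.3% with library totals without the TMM factor, 3.73% with a minimum of 10 CPM (17 of 456 tested, where fewer are tested), 3.17% with only the 2 tumor groups, 0.413% with edgeR, 16.9% with DESeq2 and 0% with the exact rank-sum permutation test, in which the smallest p possible is 0.00031 and 18.2% had an unadjusted p under 0.05 (limma 22.7%). Leaving out 1 library gave 3.31% to 9.92%. Chosen after seeing the data, edgeR without TI library 5 gave 9.78%, DESeq2 without it 18.7%, and library totals without the TMM factor and without it 20.8%. The cause of these shifts was not tested. A pseudocount of 0.1 (45 calls), median ratio scaling (55), totals without miR-148a-3p (54), no filter (27) and array weights (55) stayed within 1.5 times of 38.

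Totals without the TMM factor moved the median of all miRNAs from 0.06 to 0.49 and the share of higher calls from 65.8% to 89.0%, and median ratio scaling moved that share to 50.9%. None of the 38 changed sign in these settings. Over the fits that left out 1 library, 119 of 570 calls were lost and 22 miRNAs held in all 15, and over the other planned settings 140 of 438 were lost. Below 0.272 CPM, 3 reads in the shallowest tumor library on this scale, counting limits the values. No paired analysis was made, because TI and TIM tumors came from mice of different genotypes. The names of the columns also give the group but no number that the labels share.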
